A study of Sus scrofa with 16 samples.

Results

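Transcripts of 10 complement genes were followed in the small intestine of preterm piglets given broad-spectrum antibiotics or saline. The genes, C1S, C4A, FCN2, CFB, C3, C5, C9, C4BPB, CD55 and CD46, were taken by gene symbol from the annotation of an Affymetrix porcine expression array. They are 10 of 6765 genes that have at least 1 probe set annotated with that gene alone, and they were represented by 18 probe sets. Complement is a chain of plasma and tissue proteins that is started by antibody or lectins bound to a surface (the classical and lectin pathways) or by spontaneous turnover of C3 (the alternative pathway). All routes cleave C3, mark the surface for uptake by phagocytes and can end in a membrane pore. Soluble and membrane-bound regulators limit this on host cells. The liver makes most of the circulating proteins, and intestinal epithelial cells and phagocytes also transcribe several of them.

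The piglets (Landrace, Large White and Duroc cross) were delivered by caesarean section from 2 sows on gestation day 105. They had mainly parenteral nutrition for 3 days, then enteral formula for 2 days, and tissue was taken on day 5. In the antibiotics groups, ampicillin, gentamycin and metronidazol were given by mouth and by intramuscular injection from birth. The untreated groups had saline instead. The study enrolled 11 piglets on antibiotics and 13 on saline. The arrays analysed here form 4 groups of 4: antibiotics distal, untreated distal, antibiotics proximal and untreated proximal intestine. The number in each sample name was read as that of the animal. By this reading there were 9 animals, 7 with both segments (3 on antibiotics and 4 untreated), so the segments are not independent samples. The labels do not tie an animal to its litter.

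Values are on the log2 scale of the GCRMA method, which corrects probe signals for background, and 1 unit is a doubling. The share of probe sets above log2 5 was 45.1% to 46.5% per array. Those that exceeded this level on 4 or more of the 16 arrays, 11538 in all, were tested with limma, and p-values were adjusted by the Benjamini-Hochberg method over all of them (threshold 0.05). Each gene is given by its brightest probe set, and all 10 genes passed the filter. Of the 18 probe sets 4 did not pass, 1 of CFB and 3 of CD55. The two-sided exact permutation test of 4 arrays against 4 cannot give a p below 0.0286. Precision is limited by the small number of arrays. Arrays within a group correlated at r = 0.878 to 0.981 over the tested probe sets. A read of RNA integrity, the 5′ minus 3′ difference of actin and GAPDH control probe sets, averaged -4.22 ± 0.54 in antibiotics distal and -3.98 ± 0.25 in untreated distal arrays (log2, SD, n = 4 each, exact permutation p = 0.457). It averaged -3.52 ± 0.37 in antibiotics proximal and -3.78 ± 0.65 in untreated proximal arrays (exact permutation p = 0.543).

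In distal intestine all 10 genes had a lower mean with antibiotics than without. The call was passed, downward, by 8 of them: C1S, C4A, CFB, C3, C5, C9, C4BPB and CD46. Of all tested probe sets 1.1% were called lower in this comparison. The median difference over the 10 genes was -2.09, against 0.00 over all tested probe sets. In proximal intestine all 10 means were again lower with antibiotics, and 3 genes passed, C5, CFB and C4BPB, where 0.0867% of tested probe sets were called lower. The median there was -2.01, against -0.07 over all tested probe sets. The distal arrays of the 2 groups did not overlap for 8 genes, where 6.31% of tested probe sets were lower without overlap. The proximal arrays did not overlap for 7 genes, against 1.74%. The 10 genes, like the gene lists below, were chosen with earlier results of these data known. These counts therefore do not test whether complement stands out. The shares are over probe sets, whereas each gene is given by its brightest probe set. In these tissue samples, fewer cells of a type and less RNA per cell cannot be told apart.

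**Figure D1:**
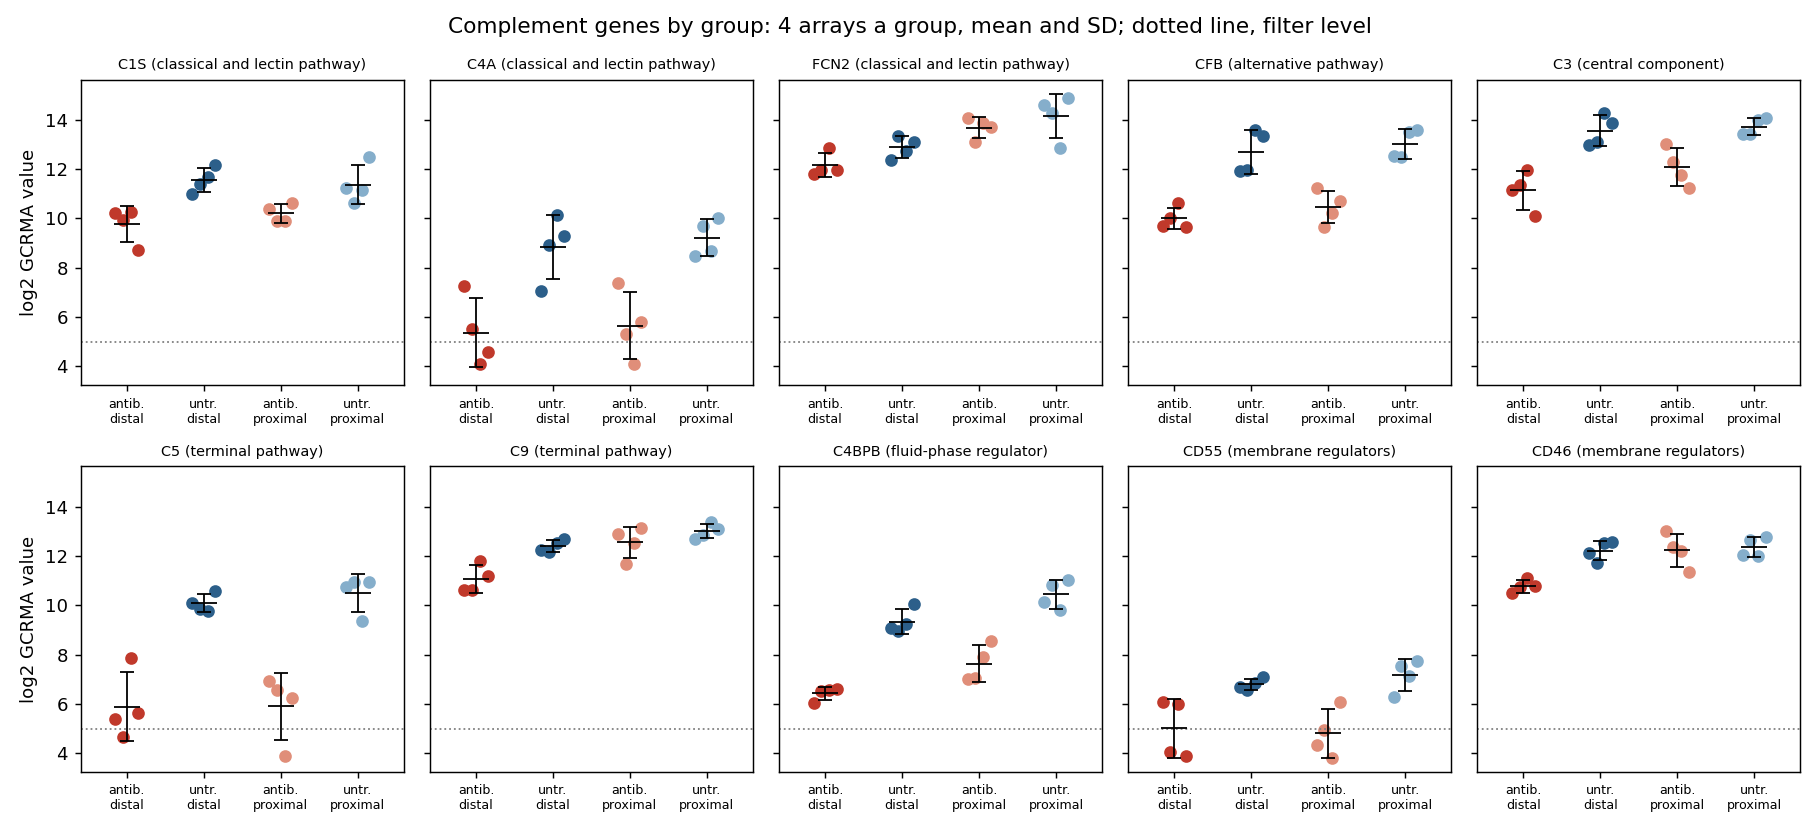
Log2 GCRMA values of the 10 complement genes on the 16 arrays, with the 4 groups on the horizontal axis; points are arrays, bars the mean and SD (n = 4), and the dotted line the filter level of 5. For C5 the antibiotics arrays lie between 3.89 and 7.87 and the untreated arrays between 9.36 and 10.94, whereas the groups of FCN2 overlap in both segments.

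Among the genes that start the classical and lectin pathways, C4A and C1S fell with antibiotics in distal intestine, and FCN2 did not pass there. None of the 3 passed in proximal intestine by limma, where C1S and C4A had an unadjusted p under 0.05, as did 12.9% of tested probe sets in either direction. C1S is the serine protease of the first component that cleaves C4 and C2. In distal intestine C1S stood at 10.21, 9.95, 10.27 and 8.71 on antibiotics arrays, against 11.00, 11.38, 11.69 and 12.18 on untreated arrays. Every antibiotics array lay below every untreated one, and C1S fell by 1.78 with antibiotics (SE 0.41, limma adjusted p = 0.0346, 3.43-fold lower). In proximal intestine C1S stood at 10.39, 9.88, 9.90 and 10.65 on antibiotics arrays, against 11.23, 10.65, 11.15 and 12.49 on untreated arrays. The groups only just failed to overlap there, with nearest arrays that both round to 10.65, and the difference of -1.17 did not pass (SE 0.41, limma adjusted p = 0.251).

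C4A is the fourth component, whose cleaved fragment binds surfaces and helps to form the convertase that splits C3. In humans it has a near-identical copy, C4B, and whether the pig probe set measures more than 1 gene was not tested. In distal intestine C4A stood at 7.26, 5.54, 4.08 and 4.60 on antibiotics arrays, against 7.05, 8.93, 10.14 and 9.30 on untreated arrays. The highest antibiotics array, of animal 85, exceeded the lowest untreated one, of animal 83. C4A fell by 3.49 (SE 0.78, limma adjusted p = 0.0288), and the exact permutation p was 0.0571. In proximal intestine C4A stood at 7.38, 5.33, 4.08 and 5.80 on antibiotics arrays, against 8.48, 9.70, 8.70 and 10.02 on untreated arrays. These groups did not overlap, yet the difference of -3.57 missed the threshold (SE 0.78, limma adjusted p = 0.0861). C4A was above 5 on 2 antibiotics distal, 4 untreated distal, 3 antibiotics proximal and 4 untreated proximal arrays, and low values on this scale carry little information on the size of a fold.

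FCN2 encodes ficolin-2, a lectin that binds acetylated sugars on microbes and, with its proteases, starts the lectin pathway. In distal intestine FCN2 stood at 11.79, 11.97, 12.88 and 11.98 on antibiotics arrays, against 12.36, 13.36, 12.75 and 13.12 on untreated arrays. In proximal intestine FCN2 stood at 14.06, 13.09, 13.89 and 13.69 on antibiotics arrays, against 14.60, 14.27, 12.85 and 14.90 on untreated arrays. The groups overlapped in both segments. The difference was -0.74 in distal intestine (95% interval -1.59 to 0.10, limma adjusted p = 0.398) and -0.47 in proximal intestine (95% interval -1.32 to 0.37, limma adjusted p = 0.678).

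The alternative pathway gene CFB fell with antibiotics in both segments, and the central component C3 fell in distal intestine and did not pass in proximal intestine. CFB encodes factor B, the protease subunit of the alternative pathway's C3 convertase. In distal intestine CFB stood at 9.71, 10.03, 10.62 and 9.65 on antibiotics arrays, against 11.93, 11.95, 13.60 and 13.35 on untreated arrays. In proximal intestine CFB stood at 11.23, 9.67, 10.24 and 10.70 on antibiotics arrays, against 12.52, 12.50, 13.51 and 13.60 on untreated arrays. The groups stood more than 1 unit apart at their nearest arrays in both segments. CFB fell by 2.71 in distal intestine (SE 0.44, limma adjusted p = 0.00369, 6.54-fold lower). In proximal intestine CFB fell by 2.57 (SE 0.44, limma adjusted p = 0.0318, 5.94-fold lower). The proximal call was lost without antibiotics array 87 or 95 or untreated array 83 or 92 (limma adjusted p = 0.0985, 0.135, 0.0681 and 0.136).

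C3 is the component on which all the pathways converge, and its cleavage tags a surface for phagocytes. In distal intestine C3 stood at 11.15, 11.37, 11.98 and 10.09 on antibiotics arrays, against 12.98, 13.11, 14.29 and 13.86 on untreated arrays. C3 fell by 2.41 there (SE 0.43, limma adjusted p = 0.00664, 5.31-fold lower), with every antibiotics array below every untreated one. In proximal intestine C3 stood at 13.03, 12.29, 11.77 and 11.25 on antibiotics arrays, against 13.42, 13.44, 13.99 and 14.07 on untreated arrays. The proximal groups did not overlap either, but animal 86 on antibiotics came close to the untreated arrays, and the difference of -1.65 did not pass (SE 0.43, limma adjusted p = 0.139). Without untreated array 88 it did (limma adjusted p = 0.0488).

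Of the 10 genes, C3, CFB and C9 were higher in untreated animals 89 and 92 than in untreated animals 83 and 88 in both segments. This split was not among the planned comparisons. The share of all tested probe sets that divide these animals in the same way was not counted, so the split is only a description. PTX3, a soluble pattern recognition protein that binds C1q and is induced by inflammatory signals, divided the same animals more widely. PTX3 stood at 11.35 and 12.64 in the distal tissue of untreated animals 89 and 92, and at 12.26 and 13.22 in their proximal tissue. On the other 12 arrays it lay between 4.0 and 7.38. C5 and CD46 did not set these animals apart in both segments. Lesion scores of single animals were not used here.

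**Figure D2:**
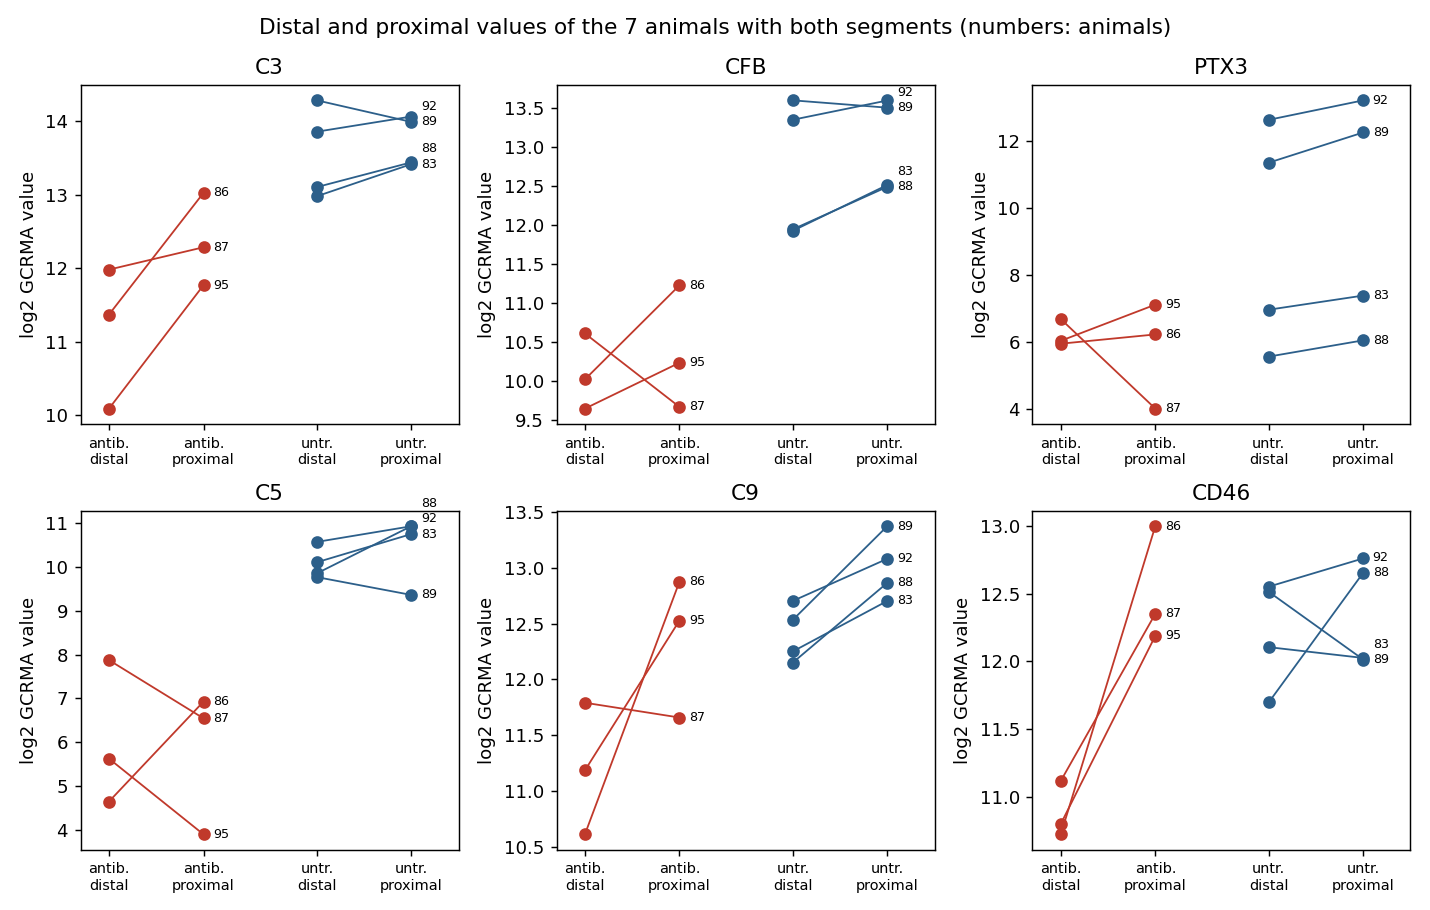
Log2 GCRMA values of C3, CFB, PTX3, C5, C9 and CD46 in the 7 animals with both segments, distal left of proximal and antibiotics left of untreated; each line is 1 animal, with its number (moved up slightly where labels would collide). Untreated animals 89 and 92 lie above 83 and 88 for C3, CFB, C9 and PTX3 in both segments, and CD46 was lower in distal than in proximal tissue in all 3 animals on antibiotics.

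Of the terminal pathway genes, C5 fell with antibiotics in both segments, and C9 fell in distal intestine. C5 is cleaved to a strong chemoattractant and to the fragment that begins the membrane pore. In distal intestine C5 stood at 5.38, 4.64, 7.87 and 5.62 on antibiotics arrays, against 10.11, 9.86, 9.77 and 10.57 on untreated arrays. In proximal intestine C5 stood at 6.93, 6.54, 3.89 and 6.22 on antibiotics arrays, against 10.75, 10.94, 9.36 and 10.93 on untreated arrays. All antibiotics arrays lay well below all untreated arrays, and 1 antibiotics array in each segment fell under the filter level, so the folds below are uncertain in size. C5 fell by 4.2 in distal intestine (SE 0.67, limma adjusted p = 0.00344, 18.3-fold lower). In proximal intestine C5 fell by 4.60 (SE 0.67, limma adjusted p = 0.0133, 24.2-fold lower). The proximal call was lost without untreated array 83 or 92 (limma adjusted p = 0.0681 and 0.0621).

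C9 is the subunit that polymerises to line the pore. In distal intestine C9 stood at 10.60, 10.61, 11.79 and 11.19 on antibiotics arrays, against 12.25, 12.15, 12.53 and 12.70 on untreated arrays. C9 fell by 1.36 without overlap (SE 0.33, limma adjusted p = 0.0403, 2.57-fold lower). In proximal intestine C9 stood at 12.87, 11.66, 12.53 and 13.13 on antibiotics arrays, against 12.70, 12.87, 13.37 and 13.08 on untreated arrays. These overlapped, and the difference was -0.46 (95% interval -1.15 to 0.23, limma adjusted p = 0.601). A second, dimmer C9 probe set averaged 5.69 ± 0.98 in antibiotics distal and 7.46 ± 0.31 in untreated distal tissue (SD, n = 4 each). It was lower by -1.77 (SE 0.39, limma adjusted p = 0.0279), with 1 overlapping antibiotics array. In proximal intestine its difference was 0.04 (limma adjusted p = 0.984).

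Among the regulators, the fluid-phase C4BPB was lower with antibiotics in both segments, the membrane protein CD46 passed in distal intestine, and CD55 stood apart without passing. C4BPB encodes the beta chain of C4b-binding protein, a soluble inhibitor of the classical and lectin C3 convertase. In distal intestine C4BPB stood at 6.05, 6.51, 6.57 and 6.58 on antibiotics arrays, against 9.08, 8.96, 9.23 and 10.07 on untreated arrays. In proximal intestine C4BPB stood at 7.0, 7.03, 7.92 and 8.56 on antibiotics arrays, against 10.12, 10.83, 9.79 and 11.02 on untreated arrays. Both segments showed a clear gap between the groups. C4BPB fell by 2.91 in distal intestine (SE 0.37, limma adjusted p = 0.00051, 7.50-fold lower). In proximal intestine C4BPB fell by 2.81 (SE 0.37, limma adjusted p = 0.00848, 7.02-fold lower), and the call was kept whichever single array was left out.

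CD55, or decay-accelerating factor, takes C3 convertases apart on host membranes. In distal intestine CD55 stood at 6.10, 4.05, 6.01 and 3.90 on antibiotics arrays, against 6.70, 6.55, 6.84 and 7.08 on untreated arrays. In proximal intestine CD55 stood at 4.34, 4.95, 3.81 and 6.09 on antibiotics arrays, against 6.30, 7.54, 7.15 and 7.74 on untreated arrays. The groups did not overlap in either segment, but only 2 antibiotics distal and 1 antibiotics proximal arrays were above 5, against all 4 untreated arrays in each, so the gene passed the filter largely through the group where it was high. The difference was -1.78 in distal intestine (SE 0.54, limma adjusted p = 0.109) and -2.38 in proximal intestine (SE 0.54, limma adjusted p = 0.0953). Without antibiotics array 98 or untreated array 88 the proximal difference passed (limma adjusted p = 0.026 and 0.0452). The second CD55 probe set averaged 4.71 ± 0.54 in antibiotics distal and 6.46 ± 0.30 in untreated distal tissue (SD, n = 4 each), and passed there (difference -1.74, SE 0.38, limma adjusted p = 0.0263). Its proximal difference was -1.94 (SE 0.38, limma adjusted p = 0.0556).

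CD46, or membrane cofactor protein, helps factor I to degrade C3b and C4b on host cells. In distal intestine CD46 stood at 10.48, 10.72, 11.12 and 10.80 on antibiotics arrays, against 12.11, 11.70, 12.51 and 12.55 on untreated arrays. CD46 fell by 1.44 there without overlap (SE 0.32, limma adjusted p = 0.0288, 2.71-fold lower). In proximal intestine CD46 stood at 13.00, 12.35, 12.19 and 11.35 on antibiotics arrays, against 12.03, 12.66, 12.01 and 12.76 on untreated arrays. The proximal groups were interleaved, with a difference of -0.14 (95% interval -0.82 to 0.54, limma adjusted p = 0.899). The other 2 CD46 probe sets had distal differences of -1.53 and -1.47 (limma adjusted p = 0.144 and 0.109) and proximal differences of 0.03 and -0.30.

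The distal count of 8 genes depended on single arrays. It was 5 without antibiotics array 85, and 4 without antibiotics array 86 or 95 or untreated array 89 or 92. Over all tested probe sets, lower calls in distal intestine fell from 127 to 61, 55 and 64 without antibiotics array 85, 86 or 95. They fell to 78 and 48 without untreated array 89 or 92. C3, CFB, C5 and C4BPB passed in distal intestine whichever array was left out. The distal calls of C1S, C4A, C9 and CD46 were each lost in at least 5 of the 8 fits that left out 1 array, with an adjusted p of at most 0.138. The proximal count of 3 was 1 without untreated array 83 or 92 and 6 without untreated array 88. Over all tested probe sets, lower calls in proximal intestine went from 10 to 2 and 4 without array 83 or 92. Without array 88 they rose to 268. Without the filter on dim probe sets 4 genes passed in distal and 0 in proximal intestine, and a fit of the proximal arrays alone gave 0.

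**Figure D3:**
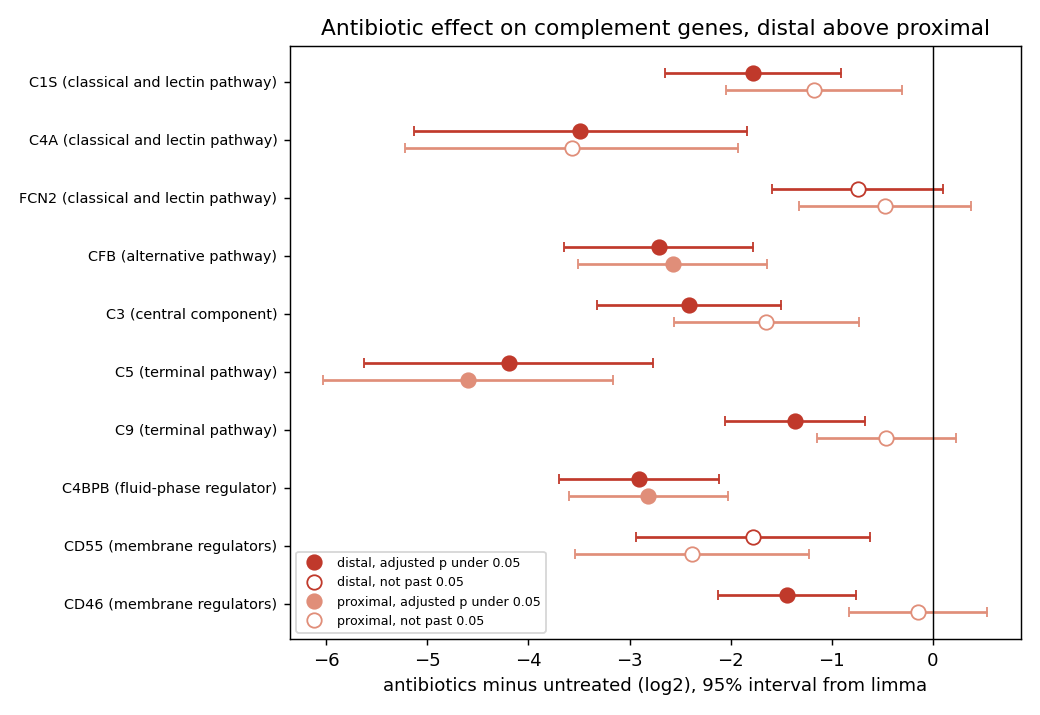
Antibiotics minus untreated difference on the log2 scale (horizontal axis) for each complement gene, with the 95% interval from limma; each gene has its distal value above its proximal one, and filled points passed an adjusted p of 0.05. All 20 differences lie below 0, from -4.60 for C5 to -0.14 for CD46, both in proximal intestine.

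By arm, the distal differences ran from -3.49 to -0.74 for the 3 classical and lectin genes and from -4.2 to -1.36 for the terminal genes C5 and C9, so both arms spanned large and small changes. The alternative pathway gene CFB (-2.71), the central C3 (-2.41) and the fluid regulator C4BPB (-2.91) lay between these extremes. There the membrane regulators CD55 (-1.78) and CD46 (-1.44) had smaller differences, in the range of those of C1S (-1.78) and C9 (-1.36). In proximal intestine the order of the estimates was another. CD55 (-2.38) lay close to CFB (-2.57) and C4BPB (-2.81) and beyond C3 (-1.65), C1S (-1.17) and C9 (-0.46), and CD46 (-0.14) was nearest to 0. Differences between genes were not tested. Only 2 antibiotics distal and 1 antibiotics proximal arrays of CD55 were above 5, so its place by size is uncertain.

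The difference of the antibiotic effects, distal minus proximal, passed for none of the 10 genes by limma, while 0.191% of tested probe sets passed in either direction. By the brightest probe set of each gene, CD46 alone had an unadjusted p under 0.05 (difference of effects -1.30, SE 0.45, limma adjusted p = 0.512), and 6.62% of tested probe sets did. A second CD46 probe set gave -1.56 (SE 0.72, limma adjusted p = 0.744). For C9 the difference of effects was -0.90 (SE 0.46, limma adjusted p = 0.771), and its second probe set, at -1.81 (SE 0.55, limma adjusted p = 0.388), also had an unadjusted p under 0.05. For C3 it was -0.76 (SE 0.61, limma adjusted p = 0.89). A call in distal and not in proximal intestine was therefore not shown to be a difference between the segments.

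Along the intestine, FCN2, C9 and CD46 were lower in distal than in proximal tissue of piglets on antibiotics, and none of the 10 passed in untreated piglets. Of all tested probe sets 2.1% were called lower in distal tissue with antibiotics, and 0.0433% without. In untreated piglets FCN2 and C4BPB had an unadjusted limma p under 0.05, as did 7.99% of tested probe sets and the second C9 probe set (difference -1.19, SE 0.39, limma adjusted p = 0.318). FCN2 averaged 12.15 ± 0.49 in antibiotics distal and 13.68 ± 0.43 in antibiotics proximal tissue (SD, n = 4 each, difference -1.53, SE 0.40, limma adjusted p = 0.0361). C9 averaged 11.05 ± 0.57 in antibiotics distal and 12.55 ± 0.64 in antibiotics proximal tissue (difference -1.50, SE 0.33, limma adjusted p = 0.012). These C9 groups overlapped (exact permutation p = 0.0571). In animal 87 C9 was slightly higher in distal tissue (11.79 against 11.66), whereas in animals 86 and 95 it was lower. CD46 averaged 10.78 ± 0.26 in antibiotics distal and 12.22 ± 0.68 in antibiotics proximal tissue (difference -1.44, SE 0.32, limma adjusted p = 0.0142). The second C9 probe set differed by -2.99 (SE 0.39, limma adjusted p = 0.000327), and the other 2 CD46 probe sets, at -1.56 and -1.35, missed the threshold (limma adjusted p = 0.0998 and 0.106). With the animal as a fixed block, CD46 alone passed (limma adjusted p = 0.0316), against 0.138 for FCN2 and 0.143 for C9. That fit rests on the 3 antibiotics animals with both segments. With the animal as a random block, which keeps all arrays, FCN2, C9 and CD46 passed (limma adjusted p = 0.0238, 0.00996 and 0.00703). The count of 3 was 0 without antibiotics distal array 85 and 1 without antibiotics distal array 86. Over all tested probe sets, lower calls fell from 242 to 145 and 139 without these arrays.

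FCN2 and C4BPB were lower in the distal segment of all 7 animals that had both. How many of all tested probe sets were lower in all 7 was not counted, so this direction is only a description. For C4BPB the distal minus proximal difference was -1.20 with antibiotics (SE 0.37, limma adjusted p = 0.0788) and -1.11 in untreated piglets (SE 0.37, limma adjusted p = 0.337). For FCN2 it was -1.26 in untreated piglets (SE 0.40, limma adjusted p = 0.289). Leaving out untreated proximal array 89 made 1 gene pass in untreated piglets. Lower calls over all tested probe sets then rose from 5 to 16.

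Of 46 other complement genes listed, 25 had a probe set and 14 passed the filter. In distal intestine 13 of the 14 had a lower mean with antibiotics and 4 passed, all lower, where 1.1% of tested probe sets were called lower, with a median difference of -1.43. At an unadjusted p under 0.05 there were 8 lower and 1 higher, against 15.8% of tested probe sets in either direction. In proximal intestine 11 of the 14 were lower and none passed by limma, though 6 had an unadjusted p under 0.05, where 12.9% of tested probe sets did in either direction. The median was -0.84. The 4 that passed in distal intestine were the protease C1R, which activates C1S, C1QC, a chain of the antibody-binding C1q, C4BPA, the alpha chain of C4b-binding protein, and SERPING1, the inhibitor of C1R and C1S.

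C4BPA stood at 7.35, 7.33, 6.24 and 6.01 on antibiotics distal arrays, against 8.69, 8.96, 8.33 and 8.53 on untreated distal arrays. C4BPA fell by 1.90 without overlap (SE 0.37, limma adjusted p = 0.0127), and it passed whichever array was left out. C1R averaged 8.64 ± 0.55 in antibiotics distal and 10.63 ± 0.57 in untreated distal tissue (SD, n = 4 each, difference -1.99, SE 0.47, limma adjusted p = 0.0395). SERPING1 averaged 6.94 ± 0.47 in antibiotics distal and 8.63 ± 0.56 in untreated distal tissue (difference -1.69, SE 0.42, limma adjusted p = 0.0489). The SERPING1 call was lost without any 1 distal array, and that of C1R without any but untreated array 88.

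C1QC averaged 6.98 ± 1.01 in antibiotics distal and 9.03 ± 0.62 in untreated distal tissue (difference -2.05, SE 0.49, limma adjusted p = 0.0399), a call that was also lost without any 1 distal array. In proximal intestine C1QC averaged 9.44 ± 0.63 with antibiotics and 9.27 ± 0.68 without (difference 0.17, limma adjusted p = 0.921). The difference of its effects was -2.22 (SE 0.69, limma adjusted p = 0.395). CD59, the membrane protein that blocks C9, had a distal difference of -1.08 (SE 0.30, limma adjusted p = 0.0764) and a proximal one of -0.70 (limma adjusted p = 0.348). CLU, a soluble inhibitor of the terminal complex, averaged 4.39 ± 0.35 in antibiotics proximal and 6.65 ± 1.11 in untreated proximal tissue. All its antibiotics arrays there were under 5, so its mean on these arrays was at least 3.14-fold lower, without a call (limma adjusted p = 0.182). CLU was above 5 on 4 untreated proximal, 2 untreated distal and 1 antibiotics distal arrays. It thus passed the filter largely through the untreated groups. PTX3 had differences of -2.96 in distal and -3.69 in proximal tissue (limma adjusted p = 0.399 and 0.348), which rest on animals 89 and 92. The only higher distal mean was that of C8B, a component of the pore (difference 1.59, SE 0.58, limma adjusted p = 0.181), named here after its values were seen.

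**Figure D4:**
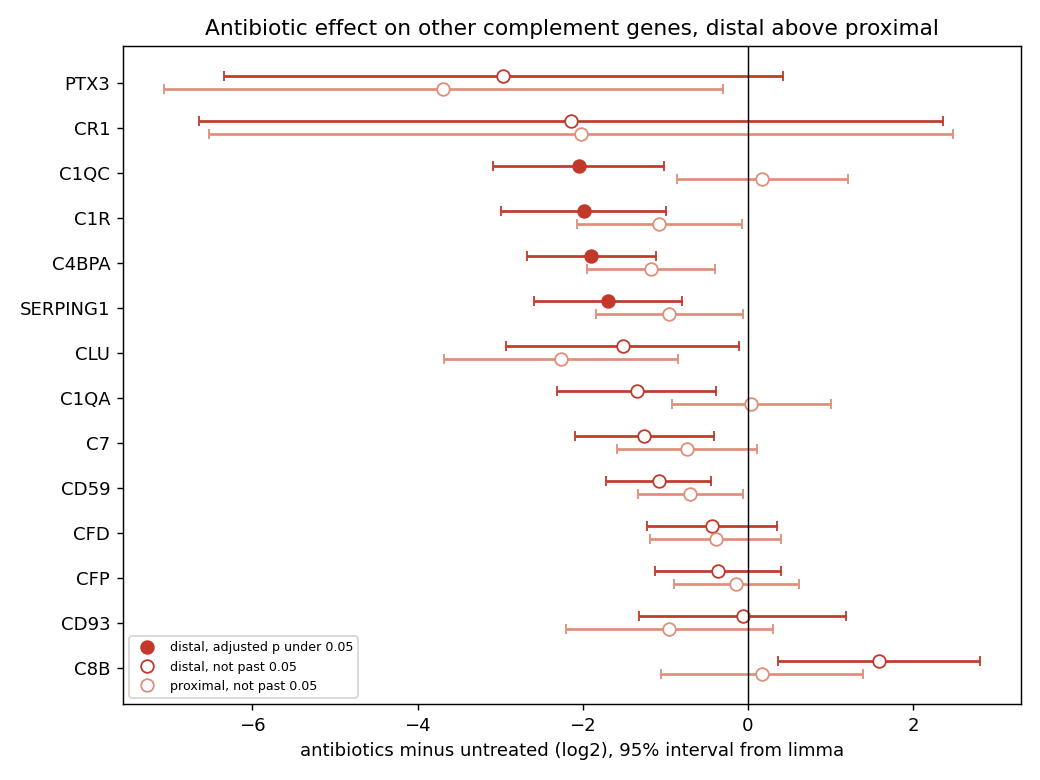
Antibiotics minus untreated difference on the log2 scale (horizontal axis) for the 14 other complement genes that passed the filter, with the 95% interval from limma; the distal value stands above the proximal one, and filled points passed an adjusted p of 0.05. The 4 filled points, C1QC, C1R, C4BPA and SERPING1, are distal and lie between -2.05 and -1.69.

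Some phagocyte markers were lower with antibiotics in distal intestine. Of 7 macrophage markers with a probe set 5 were tested, and 2 passed in distal intestine, both lower, CD163 (difference -5.0, at least 16.4-fold lower, limma adjusted p = 0.0056) and C1QC. CD163 was above 5 on 0 antibiotics distal and 1 antibiotics proximal arrays, against all 4 untreated arrays in each segment, so it was tested only through the group where it was high. C1QA and C1QC stand in both this list and that of other complement genes. AIF1, the brightest macrophage marker, had a distal difference of -1.0 (limma adjusted p = 0.248). The summed linear level of the 7 ranged from 705 to 1423 on antibiotics distal and from 2399 to 3278 on untreated distal arrays. In proximal intestine it ranged from 1136 to 3263 with antibiotics and from 1906 to 4243 without, and none passed by limma, while 2 had an unadjusted p under 0.05. Of 6 neutrophil markers 3 were tested, and S100A9 and NCF1 passed in distal intestine, both lower. FCGR3A, the brightest of the list, had differences of -1.74 in distal and -1.26 in proximal tissue. It passed in neither (limma adjusted p = 0.0629 and 0.27). S100A9 and NCF1 had no antibiotics distal array above 5 and entered the test through the untreated arrays. Of the antibiotics proximal arrays 1 was above 5 for S100A9 and 0 for NCF1. S100A9 averaged 2.32 ± 0.05 in antibiotics distal and 9.46 ± 2.22 in untreated distal tissue, at least 22.1-fold lower (limma adjusted p = 0.00161). It averaged 3.25 ± 1.42 in antibiotics proximal and 9.04 ± 2.02 in untreated proximal tissue (limma adjusted p = 0.0435). The summed neutrophil level ranged from 178 to 620 on antibiotics distal and from 1352 to 3724 on untreated distal arrays. In proximal tissue it ranged from 288 to 969 with antibiotics and from 1162 to 3032 without. The part of phagocyte number in the complement differences was not tested.

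The 9 tested epithelial markers included no call in either segment by limma, with 2 distal and 1 proximal at an unadjusted p under 0.05. Their sum ranged from 110302 to 138999 on antibiotics distal arrays, against 96002 to 213293 on untreated distal arrays. In proximal tissue it ranged from 215521 to 251008 with antibiotics and from 174134 to 216767 without. A linear sum weighs bright genes most, and FABP2 was the brightest of these, so the sum need not follow the number of epithelial cells. Of 11 hepatocyte markers with a probe set, 2 passed the filter, APOA2 and AMBP. Neither was called by limma, and both had a higher proximal mean with antibiotics at an unadjusted p under 0.05 (differences 2.10 and 3.69, limma adjusted p = 0.348 and 0.248). In distal tissue their differences were -0.47 and 0.73 (limma adjusted p = 0.86 and 0.845). In distal tissue the antibiotics arrays of AMBP lay above the untreated ones without overlap. HP was not tested and is named here after its values were seen. It averaged 2.23 ± 0.06 in antibiotics proximal and 5.41 ± 2.23 in untreated proximal tissue (SD, n = 4 each), without overlap. The sum over the hepatocyte list was mostly APOA2, so it describes that gene rather than a cell type. This sum ranged from 2076 to 4708 on antibiotics distal and from 1941 to 16344 on untreated distal arrays. In proximal tissue it ranged from 41965 to 53261 with antibiotics and from 1074 to 48030 without. ALB, the defining liver transcript, was at the floor of 2.14 on all 16 arrays. The fibroblast and endothelial lists had 5 tested genes each and no call by limma in either segment, with 1 distal fibroblast gene at an unadjusted p under 0.05. The lists of T and B cells and of erythroid cells had 1 tested gene each, which did not pass.

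Likeness was measured as the root mean square difference of centred log2 values over the 16 arrays, among 395 genes outside the complement lists with an SD of at least 1. SAMHD1, an interferon-inducible nucleotide hydrolase, was nearest to both CFB (0.37) and C3 (0.63). CFB and C3 themselves differed by 0.58. Next to CFB came EHF (0.64), FMO1 (0.72) and FAM26F (0.73), and next to C3 came FMO1 (0.70), LCP2 (0.72) and CXCR4 (0.72). The patterns nearest to C5 were farther from it: SFTPD (1.15), OLFM4 (1.32), ARG2 (1.33) and DMBT1 (1.34). For scale, the SD over the arrays was 1.5 for CFB, 1.25 for C3 and 2.47 for C5. SFTPD, or surfactant protein D, is a collagenous lectin that binds microbes, and its antibiotics minus untreated difference was -4.75 in distal and -4.16 in proximal tissue. In each segment SFTPD was above 5 on 1 antibiotics array, against all 4 untreated arrays. It thus passed the filter largely through the untreated groups. All genes named for likeness were picked over the same arrays, so their values describe the pattern and do not test it.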

How the data were processed

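Total RNA of 16 tissue samples was measured on Affymetrix porcine arrays. Per the labels' protocols, RNA was isolated with Trizol and RNeasy columns and labelled with the array maker's 3′ IVT kit. The submitters' processing notes name GCOS 1.2, GCRMA and limma, with settings not stated. The authors deposited log2 GCRMA values for each probe set on each array, with a floor at 2.14, and 39.7% of them lay under 2.5.

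There were 24123 probe sets, 124 of them controls that were not used. By an annotation that can be old, 10069 carried 1 gene, 198 several and 13732 none. Gene IDs of 9961 of the 10069 matched RefSeq, with no other symbol. Where a gene had several probe sets of its own, the one with the highest mean over all arrays stands for it. Probe sets above log2 5 on at least 4 arrays were tested (11538, 4684 genes). Group means over all 16 arrays were fitted with limma 3.58.1 (lmFit, eBayes) in R 4.3.3, two-sided, with Benjamini-Hochberg adjustment over all tested probe sets. An "at least" fold compares the higher mean with the filter level, where the lower group lies at or under it on every array. Summed levels are sums of linear values. Labels do not state whether arrays of a group come from separate extractions beyond the animal number, so p-values measure the spread between arrays.

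Segments were paired by the sample names' numbers. Residuals of the 2 arrays of an animal correlated at 0.03 to 0.53, over 0.1 in 5 of 7 animals and the own array was the best match in 5. The exceptions in both respects were animals 86 (r = 0.03) and 89 (r = 0.08), so their pairing is the least certain. Named were the 10 genes, other complement genes that passed in an antibiotic comparison or were among the 4 with the largest moderated t in a segment, and the 4 genes most like C3, CFB and C5. The members, lists and rules were chosen with earlier results of these data known. The method was tested on simulated data. Alternatives were no filter or one at log2 7, renormalization, trend and robust eBayes, array weights, fewer arrays, the mean over a gene's probe sets, the animal as random (statmod 1.5.0) or fixed block, RNA integrity or position along the gut as covariates, and each array left out. No sequences were used here. Plots used matplotlib 3.10.9 under Python 3.11.15.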

Additional observations from a re-analysis of the deposited data

Results flagged for a closer look

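Within 68 groups of 4 arrays (17 genes in 4 groups), 1 array stood far from the other 3 in 8 groups, by Dixon's 95% criterion (gap over range above 0.829). Chance alone gives about 1 in 20 groups. C5 was 9.36 on untreated proximal array 89, against 10.75 to 10.94 on the others. C4BPB was 6.05 on antibiotics distal array 85, against 6.51 to 6.58. C1QC was 5.48 on antibiotics distal array 87, against 7.37 to 7.61, and 9.96 on untreated distal array 88, against 8.68 to 8.77. C1R was 7.83 on antibiotics distal array 95, against 8.84 to 9.02. C4BPA was 8.26 on antibiotics proximal array 98, against 7.33 to 7.45. CLU was 5.45 on antibiotics distal array 85, against 3.86 to 3.89. PTX3 was 6.68 on antibiotics distal array 87, against 5.94 to 6.03. The flagged arrays of C4BPB, C1R and C1QC lay on the far side of their group, so they could not close a gap. C5 on array 89 stayed above the highest antibiotics proximal array, at 6.93. C4BPA on array 98 lay just under the lowest untreated proximal array, at 8.29. CLU on array 85 and PTX3 on array 87 exceeded their lowest untreated distal arrays, at 4.06 and 5.55.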

How the results depend on the processing

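Distal values of CFB, C3, C5 and C4BPB kept their direction and their call under all 13 alternatives run for that comparison and in all 8 fits that left out 1 array. Without a filter, 4 members passed in distal and 0 in proximal tissue. With array weights 7 passed in proximal tissue, and with only the proximal arrays 0. For distal against proximal tissue with antibiotics, 1 passed with animals that had both segments, with the replicate block and with RNA integrity as a covariate. The replicate block, which pairs the segments of an animal, can be fitted only for comparisons that hold animals constant and for the difference of effects, and beside FCN2 and C9 it changed no call of a member. With the animal as a random block the distal adjusted p of C9 was 0.052. With RNA integrity or position as covariate that of proximal CFB was 0.0613 and 0.0527. Leaving out 1 array gave 4 to 8 members in distal, 1 to 6 in proximal and 0 to 3 in the antibiotics segment comparison, 0 to 1 in the untreated one, and 0 for the difference of effects.

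Over all tested probe sets, lower calls in distal tissue numbered 127, against 54 without a filter, 853 with weights, 226 with only the distal arrays, and 48 to 200 leaving out 1 array. Higher calls numbered 118, against 812 with weights, 204 with only the distal arrays, 73 with animals that had both segments, and 57 to 153 leaving out 1 array. In proximal tissue lower calls numbered 10, against 0 without a filter, 479 with weights, 0 with only the proximal arrays, 36 with animals that had both segments, and 2 to 268 leaving out 1 array. Higher calls numbered 7, against 1 without a filter, 13 after quantile normalization again, 16 with equal medians (lower calls then 10 and 15), 472 with weights, 0 with only the proximal arrays, 19 with animals that had both, 4 with RNA integrity, 3 with position, and 0 to 288 leaving out 1 array.

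For the difference of effects, lower calls numbered 10, against 5 without a filter, 118 with weights, 19 with a random block, 2 with the replicate block, 6 without untreated distal arrays 83 and 88, and 4 to 23 leaving out 1 array. Higher calls numbered 12, against 6 without a filter, 5 with a filter at 7, 92 with weights, 7 with animals that had both, 20 with a random block, 7 with the replicate block, 4 without 83 and 88, and 5 to 21 leaving out 1 array. For the segments with antibiotics, lower calls numbered 242, against 145 without a filter, 1333 with weights, 156 with animals that had both, 132 with RNA integrity, and 131 to 279 leaving out 1 array. Higher calls numbered 364, against 1675 with weights and 221 to 400 leaving out 1 array. For the segments in untreated piglets, lower calls numbered 5, against 14 with weights, 22 with a random block, 8 with the replicate block, 17 with RNA integrity, 8 without 83 and 88, and 4 to 20 leaving out 1 array. Higher calls numbered 37, against 66 with weights, 16 with only the compared arrays, and 21 to 62 leaving out 1 array.

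Signs turned in 22 of 800 recomputed gene values and in 39 of 592 leave-out values, none of them called. In proximal tissue, CD46 turned to 0.15 with animals that had both segments (leave-out -0.40 to 0.15), and C1QC to -0.16 with RNA integrity (-0.10 to 0.47). For the difference of effects, C4A turned to -0.49 with animals that had both and with the replicate block, and to -0.78 without 83 and 88 (-0.54 to 0.67). CFB turned to 0.038 with animals that had both and with the replicate block, and to 0.11 with the mean over its probe sets (-0.40 to 0.16). C4BPB turned to 0.34 in the same block and animal settings and to 0.20 with RNA integrity (-0.30 to 0.22). Leave-out values were -0.26 to 0.82 for C5 and -0.52 to 0.17 for FCN2. For the segments with antibiotics, C4A turned to 0.93 with weights and 0.056 with RNA integrity (-0.91 to 0.30). C5 turned to 0.50 with weights, 0.26 with animals that had both and with the replicate block, and 0.021 with a random block (-0.68 to 0.40). CD55 turned to -0.054 with RNA integrity (-0.14 to 0.65). For the segments in untreated piglets, without 83 and 88, C4A turned to 0.50 (-0.80 to 0.23), CFB to 0.45, C3 to 0.34 (-0.41 to 0.021) and CD46 to 0.17 (-0.26 to 0.027). Leave-out values of C1S were -0.059 to 0.55. The causes were not tested, except that leaving out the filter adds dim probe sets to the adjustment.

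Position was not run as a covariate for the segment comparisons, since it is built from them. Most values of C4A and CD55 with antibiotics lie near or under the filter level. C5 was above it on 3 of 4 antibiotics arrays in each segment and under it on the remaining one. The size of the differences of these genes is therefore uncertain.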

Other observations

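CR1, the receptor for C3b and C4b on blood cells, was singled out after its values were seen. It stood at 8.68 on antibiotics distal array 85, at 9.28 and 10.09 on untreated distal arrays 88 and 89, and at 10.43 on untreated proximal array 88. On the other 12 arrays it lay between 2.14 and 2.34. Animal 88 was high in both segments, whereas animal 89 was high in distal tissue and at 2.25 in proximal tissue.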
